A study of Mus musculus with 14 samples.

Results

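The genes described here are 6 chemokines and 4 genes that switch inflammatory signalling off: Cxcl1, Cxcl9, Cxcl10, Cxcl12, Ccl2 and Ccl9, the NF-κB inhibitors Nfkbia and Tnfaip3, and the cytokine signalling suppressors Socs2 and Socs3. They were chosen by gene symbol, with earlier results of these data known. Each was read from its brightest probe set, the one with the highest mean log2 intensity over the 14 arrays. They make up 10 of the 18193 genes with a probe set of their own on the array. Of their 28 probe sets, 25 passed a filter on dim values, and 9 of the 10 genes passed it, all but Ccl2, among 12085 genes in all.

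The study profiled mouse liver on 14 expression arrays, with 1 array per sample. In 4 lsPERK and 4 wild-type (WT) samples, livers were taken 6 h after 1 mg/kg tunicamycin, and 3 lsPERK and 3 WT samples were controls given 0.3% DMSO, for which the labels state no time. Tunicamycin blocks N-linked glycosylation, so that unfolded proteins gather in the endoplasmic reticulum. PERK, encoded by Eif2ak3, is the stress kinase of that compartment that phosphorylates eIF2 and slows translation, and lsPERK is the series' knock-out genotype. The labels give neither the deleted part of Eif2ak3 nor the promoter behind the deletion, and they state no strain, age or sex. Whether the samples of a group are separate animals is not stated, so the p-values cover the spread between these samples, which may be technical.

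Chemokines are small secreted proteins that draw leukocytes along a gradient and act through G-protein-coupled receptors. Many of their genes are switched on by the transcription factor NF-κB, which IκB proteins hold in the cytoplasm until a signal destroys them. NF-κB in turn switches on its own inhibitors, IκBα (Nfkbia) and the ubiquitin-editing enzyme A20 (Tnfaip3), and cytokines that signal through JAK kinases and STAT factors switch on the SOCS proteins that stop them. PERK is tied to this circuit in cultured cells, where eIF2 phosphorylation lowers the synthesis of the short-lived IκBα protein. An array reads RNA, so protein-level steps of this kind are outside the measurement.

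The promoters of the genes were searched for letter patterns like those that such factors bind, and 6 promoters with a match are shown. RefSeq promoters of the mouse build GRCm38.p6 were found for 8 of the 10 genes, and Ccl2 and Socs2 were not matched. Windows of 300 bases around the start of transcription were searched on both strands for 4 patterns, and the 250 bases before the start are printed 5′ to 3′ along the gene, with the matches in capitals. The pattern GGNNTTNCC, named NF-κB-like here, was in a window of 6 of these 8 genes (Cxcl1, Cxcl9, Cxcl10, Ccl9, Nfkbia and Tnfaip3), and in 16% of 32851 promoters and 18% of 27025 genes. TTCNNNGAA, a STAT-like pattern, was found in Socs3 alone of the 8 genes and in 8.3% of promoters. AAANNGAAA, an interferon response-like pattern, was found in Cxcl10 alone and in 10.6% of promoters. TGATGNAA, a pattern like the element that ATF4 and CHOP bind, was found in 1 of the 2 Tnfaip3 promoters, which is not printed, and in 3.97% of promoters. The Cxcl12 window held none of the 4. The printed stretches lie at chr5:90890995-90891244 on the plus strand (Cxcl1), and on the minus strand at chr5:92348890-92349139 (Cxcl10), chr11:83578637-83578886 (Ccl9), chr12:55492648-55492897 (Nfkbia), chr10:19015411-19015660 (Tnfaip3) and chr11:117969367-117969616 (Socs3). Capitals mark NF-κB-like matches, except for the STAT-like match in Socs3 and the first match of Cxcl10, which is the interferon response-like one.
Cxcl1: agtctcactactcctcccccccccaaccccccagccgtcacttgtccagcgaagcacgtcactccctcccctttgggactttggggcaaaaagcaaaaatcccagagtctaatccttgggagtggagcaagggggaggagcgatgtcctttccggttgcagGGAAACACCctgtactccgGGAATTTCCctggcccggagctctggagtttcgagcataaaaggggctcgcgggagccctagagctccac
Cxcl10: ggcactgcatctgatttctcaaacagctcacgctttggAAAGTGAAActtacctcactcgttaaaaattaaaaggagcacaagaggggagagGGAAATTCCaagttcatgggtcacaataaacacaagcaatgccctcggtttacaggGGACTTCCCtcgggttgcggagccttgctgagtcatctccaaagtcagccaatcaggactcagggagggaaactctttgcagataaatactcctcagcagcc
Ccl9: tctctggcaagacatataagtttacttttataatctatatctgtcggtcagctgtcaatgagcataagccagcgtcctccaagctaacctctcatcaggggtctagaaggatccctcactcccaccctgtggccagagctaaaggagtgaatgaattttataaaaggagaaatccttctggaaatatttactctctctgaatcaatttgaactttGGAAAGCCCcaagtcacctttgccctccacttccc
Nfkbia: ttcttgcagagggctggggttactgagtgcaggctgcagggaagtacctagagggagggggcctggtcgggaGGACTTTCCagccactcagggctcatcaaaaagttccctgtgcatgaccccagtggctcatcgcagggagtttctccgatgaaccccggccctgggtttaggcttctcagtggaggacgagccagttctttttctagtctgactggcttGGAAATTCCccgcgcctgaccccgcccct
Tnfaip3: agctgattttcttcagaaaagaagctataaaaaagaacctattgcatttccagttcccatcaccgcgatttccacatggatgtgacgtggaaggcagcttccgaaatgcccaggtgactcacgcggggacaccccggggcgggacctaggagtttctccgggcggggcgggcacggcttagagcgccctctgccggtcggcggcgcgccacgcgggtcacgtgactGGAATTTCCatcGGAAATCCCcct
Socs3: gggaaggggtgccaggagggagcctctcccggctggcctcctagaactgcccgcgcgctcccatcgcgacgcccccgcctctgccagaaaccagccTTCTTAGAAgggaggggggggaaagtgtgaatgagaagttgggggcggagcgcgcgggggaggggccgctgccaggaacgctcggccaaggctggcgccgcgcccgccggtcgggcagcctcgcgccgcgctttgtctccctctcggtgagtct
Cxcl1 carries a pair of NF-κB-like matches, the nearer one starting 70 bases before the start of transcription. Nfkbia also has 2, starting 178 and 29 bases before it, and the printed Tnfaip3 promoter has 2 that start 24 and 12 bases before it. Ccl9 has 1, starting 35 bases before it. A match describes these letters only and is no evidence that a factor binds there.

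Levels are quantile-normalized array intensities without a unit, and differences are on the log2 scale, tunicamycin minus control or lsPERK minus WT. A gene was called where limma's adjusted p (Benjamini-Hochberg over the 12085 genes) was under 0.05. Eif2ak3 lay at 239 to 316 in lsPERK tunicamycin livers, against 1725 to 2420 in WT tunicamycin livers, and at 127 to 157 in lsPERK control livers, against 240 to 443 in WT control livers. Its difference between lsPERK and WT was −2.75 under tunicamycin (adjusted p 1.47e-07) and −1.27 in controls (adjusted p 0.309). Deposited array medians were 34.4 to 53.4. Signal of Xist, the RNA of the inactive X chromosome, reached 7878 or more on 6 arrays, called Xist-high here, and stayed at 61.2 or less on 8. Of the 6, lsPERK tunicamycin livers gave 2, WT tunicamycin livers 1, lsPERK control livers 2 and WT control livers 1. For β-actin, where a higher log2 ratio of the 3′ to the 5′ probe set goes with shorter cDNA, the ratio averaged 0.68 ± 0.10 in lsPERK tunicamycin livers (SD, n = 4), 0.84 ± 0.25 in WT tunicamycin livers (n = 4), 0.87 ± 0.25 in lsPERK control livers (n = 3) and 1.09 ± 0.15 in WT control livers (n = 3). Hepatocyte markers were bright throughout, with 10 genes summing to 165740 to 177450 over the 14 arrays. In WT liver Tat rose (0.88) and Apob fell (−0.19), where 20.7% of all genes rose and 26.0% fell. Under tunicamycin Tat was lower (−0.50) and Apob (0.14) and Cyp2e1 (0.16) were higher in lsPERK than in WT liver. Of 7 cholangiocyte markers 3 were tested, and 1, Sox9, rose in lsPERK liver (1.44), where 8.42% of all genes rose. Its lsPERK control values, 14.76, 26.60 and 40.15, all lay under the filter threshold of 41.5, so the size of that rise is uncertain.

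Among the 9 genes, Cxcl1 rose with tunicamycin in lsPERK liver and fell in WT liver, Ccl9 rose in WT liver, and Cxcl12, Socs2 and Socs3 fell in both. In lsPERK liver 3 of the 9 fell and 1 rose, where 7.27% of all genes tested fell and 8.42% rose. In WT liver 5 fell and 1 rose, where 26.0% of all genes fell and 20.7% rose. Under tunicamycin 5 genes were higher and 1 lower in lsPERK than in WT liver, where 18.5% of all genes were higher and 16.8% lower. In control livers none of the 9 was called between lsPERK and WT, where 0% of all genes were called (smallest adjusted p 0.309), while 2 of the 9 and 512 of the 12085 had an unadjusted p under 0.05 in limma. The response to tunicamycin itself differed between the genotypes, lsPERK minus WT, upward for 3 genes and downward for 1, where 10.2% of all genes were called upward and 9.67% downward. The median difference of the 9 genes was −0.10 in the lsPERK response, against −0.02 over all genes, and −0.90 in the WT response, against −0.13. It was 0.54 for lsPERK against WT under tunicamycin, against 0.05 over all genes. The comparisons share arrays, so their counts are not independent of each other. The 9 genes were also chosen with earlier results of these data known, so their counts and medians do not test the set. With the values as deposited, the responses differed upward for 1 gene and downward for 1, 83.7% of the genes called in WT liver were higher with tunicamycin, against 44.2% after quantile normalization, and the median difference of all genes in WT liver was 0.30.

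**Figure D1:**
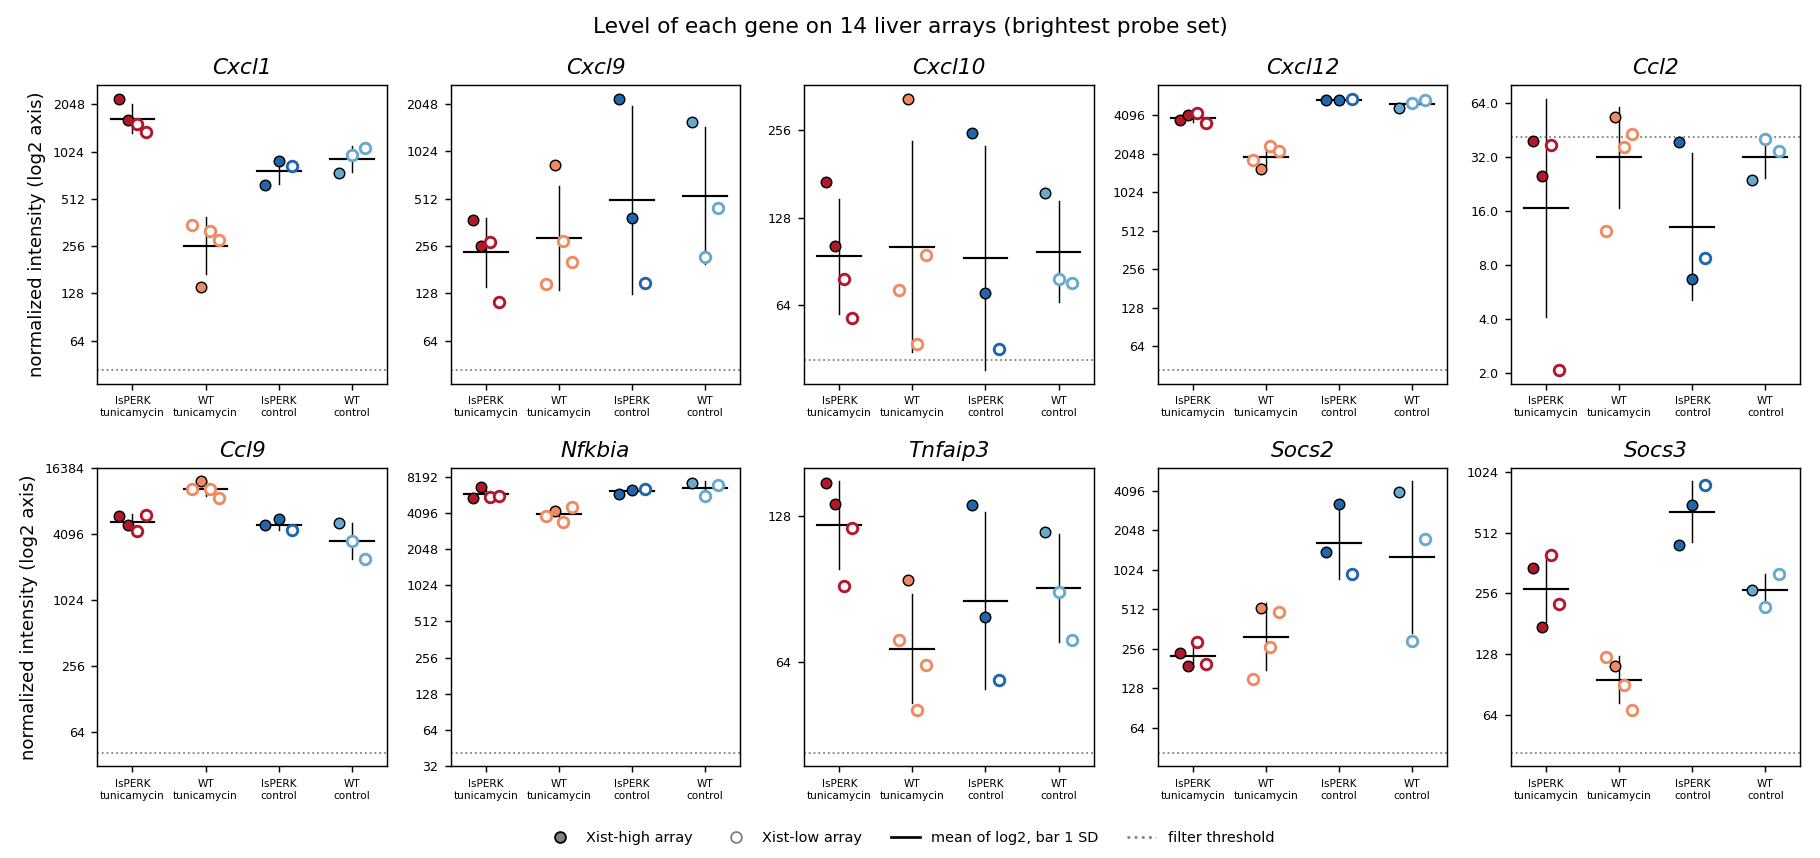
Normalized intensity of the 10 genes on each of the 14 liver arrays (log2 axis, a panel per gene), with lsPERK tunicamycin, WT tunicamycin, lsPERK control and WT control from left to right. Bars are the mean of log2 values with 1 SD (n = 4, 4, 3 and 3), filled points are Xist-high arrays, and the dotted line is the filter threshold of 41.5. Cxcl1 runs from 1367 to 2232 in lsPERK tunicamycin livers and from 139 to 351 in WT tunicamycin livers, while Ccl9 is brightest in WT tunicamycin livers.

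Cxcl1, a chemokine with the ELR motif that draws neutrophils through the receptor Cxcr2, moved in opposite directions in the 2 genotypes. Its intensity was 2232, 1622, 1544 and 1367 in lsPERK tunicamycin livers and 351, 139, 319 and 281 in WT tunicamycin livers. Control livers had 624, 886 and 829 in lsPERK and 746, 970 and 1083 in WT. Every lsPERK tunicamycin array lay above every control array and every WT tunicamycin array lay below them, while the controls of both genotypes overlapped. Cxcl1 rose by 1.11 with tunicamycin in lsPERK liver (SE 0.28, 2.16-fold, adjusted p 0.0148) and fell by 1.84 in WT liver (SE 0.28, 3.58-fold, adjusted p 9.76e-05). Under tunicamycin it was 6.46-fold higher in lsPERK than in WT liver (log2 2.69, SE 0.26, adjusted p 4.08e-06), and the difference between the 2 responses was 2.95 (SE 0.39, adjusted p 0.000261). In controls the difference between lsPERK and WT was −0.26 (95% CI −0.89 to 0.38, adjusted p 0.992).

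The other probe sets of Cxcl1 kept these directions at different sizes. All 3 were called higher in lsPERK than in WT liver under tunicamycin, by 0.53 to 2.69. The WT response was −1.84 to −0.38 and was called in 2 of 3, and the lsPERK response was 0.34 to 1.11 and was called in 2 of 3. The rise in lsPERK liver lost its call without lsPERK control replicate 1, with a value of 0.96 and an adjusted p of 0.0612. Markers of neutrophils, the cells that Cxcl1 draws, were dim: 5 of 12 passed the filter, 0 were called in any comparison, and Mpo, Camp, Mmp8, Mmp9 and Ltf did not pass. Their summed intensity was 126 to 201 in lsPERK tunicamycin livers, 106 to 519 in WT tunicamycin livers, 141 to 579 in lsPERK control livers and 174 to 414 in WT control livers. In whole liver, fewer cells of a type and less RNA per cell cannot be told apart, here or in the results that follow.

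**Figure D2:**
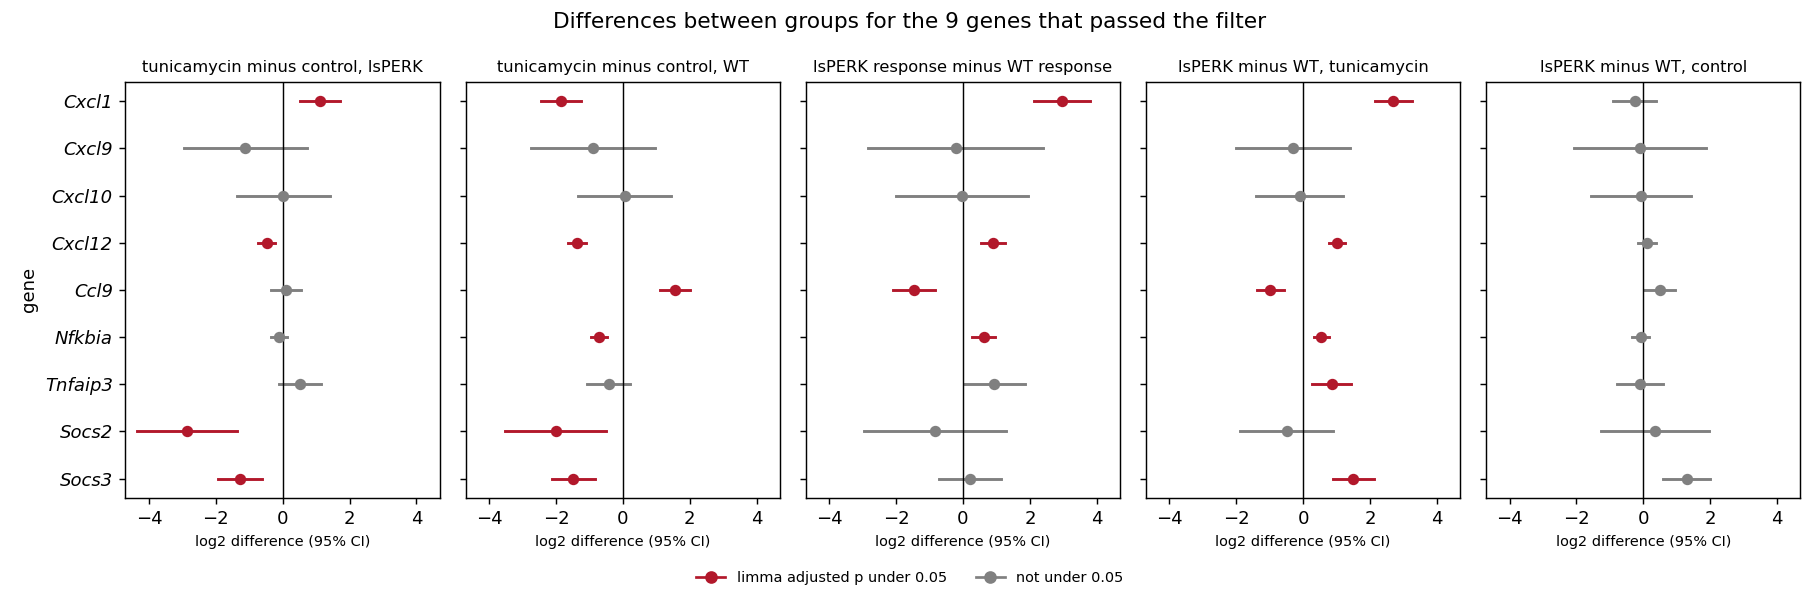
Differences of the 9 genes that passed the filter (log2, a row per gene) with 95% confidence intervals from the limma fit, from left to right for the lsPERK response, the WT response, the difference between both, lsPERK minus WT under tunicamycin and lsPERK minus WT in controls. Red marks an adjusted p under 0.05. Cxcl1 stands at 1.11 in the lsPERK response and −1.84 in the WT response, and no gene is red in the control panel.

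Cxcl12, which binds Cxcr4 and holds blood-forming cells and lymphocytes in their niches, fell with tunicamycin in both genotypes and fell further in WT liver. Intensities were 3783, 4078, 4229 and 3530 in lsPERK tunicamycin livers, 1832, 1559, 2339 and 2149 in WT tunicamycin livers, 5374, 5343 and 5533 in lsPERK control livers, and 4651, 5117 and 5369 in WT control livers. No tunicamycin array reached a control array, and none of the lsPERK tunicamycin arrays overlapped the WT tunicamycin ones. The fall was 0.48 in lsPERK liver (log2 −0.48, SE 0.12, 1.39-fold, adjusted p 0.0155), and 1.37 in WT liver (log2 −1.37, SE 0.12, 2.59-fold, adjusted p 8.49e-07). Under tunicamycin Cxcl12 was higher in lsPERK than in WT liver by 1.00 on the log2 scale (SE 0.11, adjusted p 1.37e-05), and the responses differed by 0.90 (SE 0.17, adjusted p 0.00264). The other kept probe set was also called lower in WT liver (−0.92) and higher in lsPERK than in WT liver under tunicamycin (0.61), but was not called in the lsPERK response (−0.24). The call in lsPERK liver was lost with the values as deposited (adjusted p 0.0906) and with median centring (−0.35, adjusted p 0.190). The difference between responses was also lost with the values as deposited (0.49, adjusted p 0.140).

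Cxcr4, the signalling receptor of Cxcl12, was dim. It was 25.1, 25.2, 19.3 and 36.8 in lsPERK tunicamycin livers, 105, 48.1, 61.9 and 50.9 in WT tunicamycin livers, 29.9, 22.3 and 13.2 in lsPERK control livers and 26.4, 17.4 and 8.68 in WT control livers. Only the WT tunicamycin arrays lay above the filter threshold of 41.5. Cxcr4 passed the filter through that group alone, so its calls in the WT response and between genotypes under tunicamycin are not read as a result, and no fold is given. Ackr3, the scavenger receptor of Cxcl12, was not called in any comparison. Stellate and endothelial cells of the liver also make Cxcl12, so their markers were read beside it. Over all genes 7.27% fell and 8.42% rose in lsPERK liver, and 26.0% fell in WT liver. Under tunicamycin 18.5% of all genes were higher in lsPERK than in WT liver. Of 10 stellate cell and fibroblast markers tested, 0 were called in lsPERK liver, 2 fell in WT liver (Reln −0.48 and Col3a1 −0.82), and 3 were higher in lsPERK than in WT liver under tunicamycin (Reln 0.57, Rgs5 0.57 and Acta2 0.75). The 10 summed to 11313 to 14227 in lsPERK tunicamycin, 8548 to 11926 in WT tunicamycin, 10933 to 13074 in lsPERK control and 10340 to 14665 in WT control livers. Of 11 endothelial markers tested, 0 were called in lsPERK liver, 2 fell in WT liver (Kdr −0.65 and Stab2 −0.70), and Eng was 0.50 higher in lsPERK than in WT liver under tunicamycin. Their sums were 5453 to 7619, 4943 to 7676, 6940 to 8530 and 5618 to 8257 in the same order of groups. The part of these cells in the Cxcl12 values was not tested.

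Ccl9, a CC chemokine of mice that acts through Ccr1, rose in WT liver, and the response of lsPERK liver differed from it. Its intensity was 6020, 4990, 4345 and 6071 in lsPERK tunicamycin livers and 10572, 12426, 10471 and 8718 in WT tunicamycin livers. Control livers had 4949, 5566 and 4467 in lsPERK and 5165, 3571 and 2431 in WT. All WT tunicamycin arrays lay above the other 10, and the other 3 groups overlapped. The change was 0.09 in lsPERK liver (95% CI −0.35 to 0.53, adjusted p 0.826) and 1.56 in WT liver (SE 0.21, 2.95-fold, adjusted p 3.07e-05). Ccl9 was lower by 0.98 in lsPERK than in WT liver under tunicamycin (log2 −0.98, SE 0.19, 1.97-fold, adjusted p 0.00114), and the responses differed by −1.47 (SE 0.29, adjusted p 0.00342). In controls lsPERK was 0.49 above WT (unadjusted p 0.0444, adjusted p 0.992). Both kept probe sets were called alike in the WT response (1.56 and 2.18), under tunicamycin (−0.98 and −1.34) and in the difference of responses (−1.47 and −1.90).

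Ccl2, the chemokine that draws monocytes through Ccr2, was at the dim end of the array. It was 39.3, 25.1, 37.4 and 2.07 in lsPERK tunicamycin livers, 12.3, 53.3, 36.2 and 42.8 in WT tunicamycin livers, 38.6, 6.68 and 8.69 in lsPERK control livers and 23.9, 40.4 and 34.3 in WT control livers. Only 2 arrays, both WT tunicamycin, exceeded the threshold of 41.5, so Ccl2 did not enter the fit and has no adjusted p. All 4 groups overlapped. Of 8 monocyte markers 3 were tested, and 1, Plac8, fell in WT liver (−0.99), where 26.0% of all genes fell. The 3 markers summed to 1253 to 1978 in lsPERK tunicamycin, 780 to 2317 in WT tunicamycin, 1324 to 4090 in lsPERK control and 1415 to 3344 in WT control livers.

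Cxcl9 and Cxcl10, the interferon-induced ligands of Cxcr3 that draw T cells and NK cells, were called in none of the 5 comparisons, and their values spread widely within the groups. Cxcl9 was 374, 255, 271 and 113 in lsPERK tunicamycin livers, 146, 836, 274 and 203 in WT tunicamycin livers, 2223, 387 and 148 in lsPERK control livers, and 1585, 216 and 446 in WT control livers. Its highest values were those of lsPERK control replicate 1 and WT control replicate 1, and all groups overlapped. The response was −1.11 in lsPERK liver (95% CI −2.96 to 0.74, adjusted p 0.444) and −0.90 in WT liver (95% CI −2.75 to 0.95, adjusted p 0.421). Without the 2 control arrays the responses were −0.04 in lsPERK and −0.11 in WT liver, and neither was called.

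Cxcl10 was 170, 102, 78.3 and 57.9 in lsPERK tunicamycin livers, 72.1, 329, 46.8 and 95.5 in WT tunicamycin livers, 251, 70.4 and 45.2 in lsPERK control livers, and 155, 78.7 and 76.5 in WT control livers. The groups overlapped, and their mean log2 levels lay between 6.54 and 6.66. Its response was 0.02 in lsPERK liver (95% CI −1.38 to 1.42, adjusted p 0.991) and 0.05 in WT liver (95% CI −1.35 to 1.45, adjusted p 0.953). Neither Cxcl9 nor Cxcl10 was called between the genotypes.

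Cxcl9, Cxcl10 and Tnfaip3 moved with the Xist signal of the array, a relation picked out after the values were seen. With Xist status as a covariate beside the 4 groups, Cxcl9 was 1.85 higher on Xist-high than on Xist-low arrays (SE 0.41, adjusted p 0.0107) and Cxcl10 was 1.42 higher (SE 0.30, adjusted p 0.00911). Tnfaip3 was 0.60 higher (SE 0.16, adjusted p 0.0265), so that 3 of the 9 genes were called higher, where 6.34% of all genes were. Cxcl9 ranged from 255 to 2223 on the 6 Xist-high arrays and from 113 to 446 on the 8 Xist-low arrays. Cxcl10 ranged from 70.4 to 329 and from 45.2 to 95.5 on the same arrays. The 13 Kupffer cell and macrophage markers moved with Xist as well: within each group, every Xist-high array had a higher sum than every Xist-low array. The sums on Xist-high against Xist-low arrays were 16019 and 14057 against 10526 and 10884 in lsPERK tunicamycin livers, and 20377 against 6540, 8964 and 10779 in WT tunicamycin livers. They were 30020 and 22015 against 10024 in lsPERK control livers, and 31121 against 10640 and 17825 in WT control livers. The labels give no sex, and the part of these cells in the relation with Xist was not tested.

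By the likeness of the values over the 14 arrays, Cxcl9 lay nearest to genes of the interferon response. The measure was the root mean square difference of centred log2 values, and it was 0.37 for Gbp8, 0.41 for Gbp2 and 0.52 for Cd74, against an SD of 1.27 for Cxcl9 itself. Gbp8 and Gbp2 are guanylate-binding proteins that interferon induces, and Cd74 is the invariant chain of MHC class II. Gbp2 was 1086, 292 and 56.6 in lsPERK control livers and 706, 103 and 215 in WT control livers, the same order of arrays as Cxcl9 within each of these groups. None of the 3 was called in any of the 5 comparisons. Macrophages and T cells are sources of such transcripts. Of the 13 Kupffer cell and macrophage markers, 2 were called lower in WT liver with tunicamycin (Cd5l −1.10 and Mpeg1 −1.13) and 0 in lsPERK liver. Over all genes 26.0% fell in WT and 7.27% in lsPERK liver. Of 13 lymphocyte and NK cell markers 8 were tested, 0 were called in any of the 5 comparisons, and they summed to 262 to 299 in lsPERK tunicamycin, 147 to 439 in WT tunicamycin, 269 to 517 in lsPERK control and 228 to 553 in WT control livers. The part of these cells in the Cxcl9 and Cxcl10 values was not tested.

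**Figure D3:**
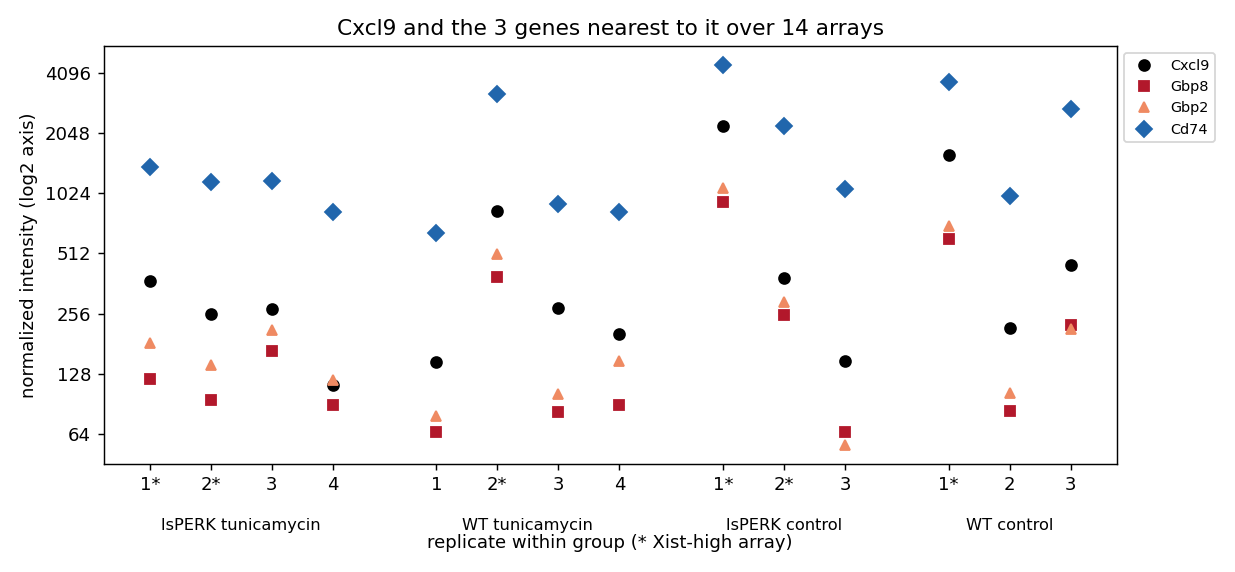
Normalized intensity (log2 axis) of Cxcl9 and of the 3 genes whose values lay nearest to it, Gbp8, Gbp2 and Cd74, on each of the 14 arrays, which are arranged by group and replicate. An asterisk marks a Xist-high array. The 4 genes share their highest array in each group except lsPERK tunicamycin, and Cxcl9 peaks at 2223 in lsPERK control replicate 1.

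Nfkbia, the NF-κB target that encodes IκBα, fell in WT liver and was not called in lsPERK liver. Its intensity was 5426, 6687, 5581 and 5677 in lsPERK tunicamycin livers, 3833, 4237, 3422 and 4586 in WT tunicamycin livers, 5893, 6348 and 6519 in lsPERK control livers, and 7214, 5653 and 7006 in WT control livers. The WT tunicamycin arrays lay below all others, and the other 3 groups overlapped. The change was −0.10 in lsPERK liver (95% CI −0.34 to 0.14, adjusted p 0.616) and −0.72 in WT liver (SE 0.11, 1.65-fold, adjusted p 0.000138). Under tunicamycin Nfkbia was 1.46-fold higher in lsPERK than in WT liver (log2 0.54, SE 0.10, adjusted p 0.00107), and the responses differed by 0.62 (SE 0.16, adjusted p 0.0150). That last call was lost with the values as deposited (0.35, adjusted p 0.326) and without lsPERK control replicate 1 and WT control replicate 1 together (0.51, adjusted p 0.0774). Of the 5 kept probe sets, 4 were called lower in WT liver, and the brightest gave the smallest of these changes, with −1.05, −1.27 and −1.01 in the others. None of the 5 was called in lsPERK liver (−0.19 to 0.21), and 4 were called higher in lsPERK than in WT liver under tunicamycin (0.54 to 0.97).

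Tnfaip3, which encodes A20, was dim and weakly called. It was 149, 136, 92.0 and 121 in lsPERK tunicamycin livers, 70.8, 94.5, 50.8 and 63.1 in WT tunicamycin livers, 135, 79.2 and 58.6 in lsPERK control livers, and 118, 89.2 and 70.8 in WT control livers. The lowest lsPERK tunicamycin array lay just under the highest WT tunicamycin array. Tnfaip3 was 1.80-fold higher in lsPERK than in WT liver under tunicamycin (log2 0.85, SE 0.28, adjusted p 0.0276). The response was 0.52 in lsPERK liver (adjusted p 0.281) and −0.42 in WT liver (adjusted p 0.278), and their difference of 0.93 was not called (adjusted p 0.144). Its single call was lost with the values as deposited (0.72, adjusted p 0.191), with median centring (0.80, adjusted p 0.0502), with the mean of its probe sets (0.85, adjusted p 0.290), with the β-actin ratio as a covariate (0.77, adjusted p 0.0670), on Xist-low or Xist-high arrays alone (adjusted p 0.0611 and 0.322), and without lsPERK tunicamycin replicate 1, 2 or 4 or WT tunicamycin replicate 3 or 4, each alone (adjusted p 0.0533 to 0.0824). The other kept probe set was not called in any comparison.

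**Figure D4:**
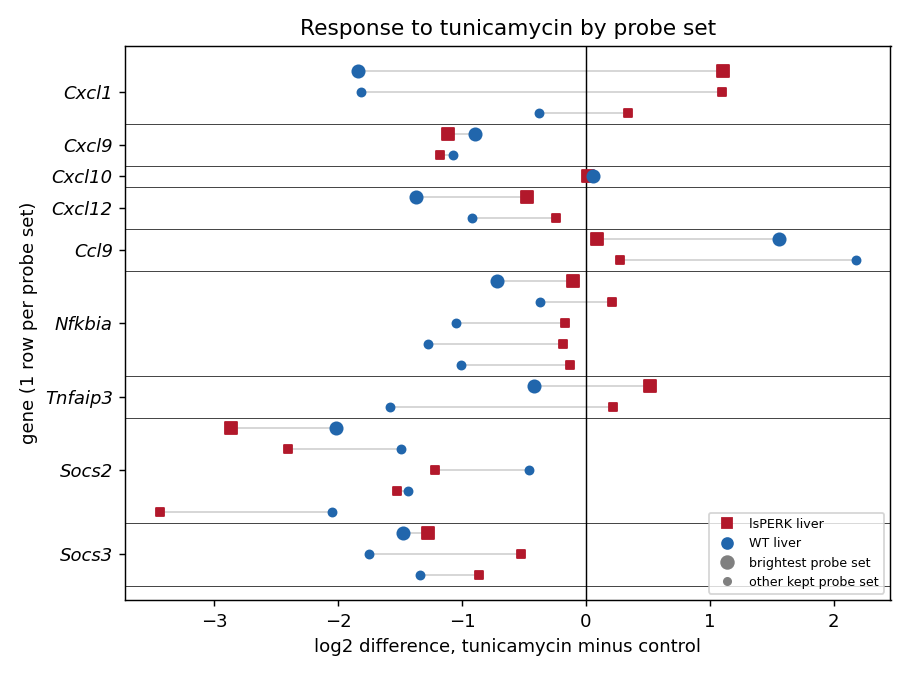
Response to tunicamycin (log2 difference, tunicamycin minus control) of each of the 25 kept probe sets of the 9 genes, a row per probe set, with red squares for lsPERK liver and blue circles for WT liver. Large symbols are the brightest probe set of a gene. The square lies to the right of the circle in all 3 Cxcl1 and all 5 Nfkbia rows and to its left in both Ccl9 rows.

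Socs3, the suppressor that STAT3 switches on and that stops signalling by interleukin-6, fell with tunicamycin in both genotypes and was higher in lsPERK than in WT liver under tunicamycin. It was 343, 174, 395 and 226 in lsPERK tunicamycin livers and 124, 111, 89.7 and 67.3 in WT tunicamycin livers. Control livers had 446, 705 and 882 in lsPERK and 266, 220 and 321 in WT. The lsPERK arrays lay above the WT arrays under tunicamycin and in controls, without overlap. Socs3 fell by 1.27 in lsPERK liver (SE 0.30, 2.41-fold, adjusted p 0.0120) and by 1.48 in WT liver (SE 0.30, 2.78-fold, adjusted p 0.00123). Under tunicamycin it was 2.83-fold higher in lsPERK than in WT liver (log2 SE 0.28, adjusted p 0.000912). In controls the difference was 1.29 (SE 0.33, unadjusted p 0.00144), which was not called (adjusted p 0.922), and the responses differed by 0.21 (95% CI −0.72 to 1.13, adjusted p 0.795).

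The 3 kept probe sets of Socs3 were alike under tunicamycin and less so in controls. All 3 were called lower in WT liver (−1.75 to −1.34) and higher in lsPERK than in WT liver under tunicamycin (1.38 or more). Only the brightest was called in the lsPERK response (−1.27 to −0.53 over the 3), and in controls the difference between lsPERK and WT ran from 0.26 to 1.29. In the probe set with 0.26 the control groups overlapped, at 152, 227 and 328 in lsPERK and 173, 143 and 269 in WT. The call in lsPERK liver was also lost without lsPERK control replicate 2 (−1.21, adjusted p 0.0533) or replicate 3 (−1.05, adjusted p 0.0531).

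Socs2, which growth hormone induces through STAT5 and which restrains growth hormone signalling, had the largest SD of the 9 genes over the 14 arrays, 1.58 on the log2 scale. It was 238, 190, 289 and 196 in lsPERK tunicamycin livers, 151, 522, 263 and 488 in WT tunicamycin livers, 1409, 3257 and 953 in lsPERK control livers, and 3999, 296 and 1768 in WT control livers. All lsPERK tunicamycin arrays lay below the lsPERK controls, whereas WT control replicate 2, at 296, lay within the WT tunicamycin range. Socs2 fell by 2.86 in lsPERK liver (SE 0.70, 7.26-fold, adjusted p 0.0133) and by 2.01 in WT liver (SE 0.70, 4.03-fold, adjusted p 0.0295). The responses differed by −0.85 (95% CI −2.97 to 1.28, adjusted p 0.614). Without lsPERK control replicate 2 the change in lsPERK liver was −2.36 (adjusted p 0.0781). In WT liver the change was −3.07 without WT control replicate 2 (adjusted p 0.00052), and −1.19 without WT control replicate 1 (adjusted p 0.171). The call in WT liver was also lost without WT control replicate 3 or WT tunicamycin replicate 1 or 3, with the values as deposited (adjusted p 0.0991), and with the β-actin ratio as a covariate (adjusted p 0.0706). Of 5 kept probe sets, 4 were called lower in lsPERK and 2 in WT liver. The probe set with the largest change in lsPERK liver (−3.43) passed the filter through control arrays alone. It was at most 18.5 in tunicamycin livers, so its call adds no support.

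The pathways that induce Socs2 and Socs3 were read from lists of growth hormone targets and of other SOCS and JAK-STAT genes, and Cish is in both lists. Igfals, the liver protein that holds circulating IGF1, fell by 0.92 in lsPERK and by 2.82 in WT liver and was 2.01 higher in lsPERK than in WT liver under tunicamycin. Of 7 growth hormone targets tested, 2 fell in lsPERK liver (Igfals and Cish, which fell by 1.73) and 1 fell in WT liver. Cish is another STAT5-induced member of the SOCS family. Of 27 other SOCS and JAK-STAT genes tested, 4 fell and 1 rose in lsPERK liver, and 12 fell and 5 rose in WT liver. Over all genes 7.27% fell and 8.42% rose in lsPERK liver, and 26.0% fell and 20.7% rose in WT liver. With the values as deposited the calls of this list numbered 2 in lsPERK and 7 in WT liver. In WT liver the calls with the smallest p were falls of Stat6 (−0.84), Jak2 (−0.71), Stat5b (−0.67) and Stat5a (−1.05), and in lsPERK liver Stat2 (−1.21), Pias3 (−0.65), Osmr (0.76) and Cish. Under tunicamycin 10 of the 27 were higher and 4 lower in lsPERK than in WT liver, where 18.5% of all genes were higher and 16.8% lower. Among the higher were Stat6 at 0.73, Stat5b at 0.76, Lifr at 0.88 and Stat5a at 1.11. With the values as deposited, 6 of the 27 were called in this comparison, against 14 after quantile normalization.

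Of 16 other genes of the NF-κB subunits, kinases and inhibitors tested, 2 rose in lsPERK liver, where 8.42% of all genes rose, and 6 rose and 1 fell in WT liver, where 20.7% rose and 26.0% fell. These counts depended on the scaling, with 1 call in lsPERK and 11 in WT liver for the values as deposited. Rela, the main activating subunit, rose by 1.18 in WT liver and was lower by 1.06 in lsPERK than in WT liver under tunicamycin (log2 −1.06). Nfkbib, which encodes IκBβ, rose by 0.44 in lsPERK and by 1.11 in WT liver, so the 2 IκB genes moved in opposite directions in WT liver. Nfkbiz, a nuclear IκB protein, fell by 1.88 in WT liver and was 2.05 higher in lsPERK than in WT liver under tunicamycin. Ikbke, an IκB kinase-related enzyme, rose by 2.21 in lsPERK and by 0.79 in WT liver. The median of the 16 was 0.21 in the lsPERK and 0.32 in the WT response, against −0.02 and −0.13 over all genes.

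Of 15 other brakes on inflammation tested, 2 rose and 1 fell in lsPERK liver, and 6 rose and 2 fell in WT liver, beside the same shares over all genes. As deposited, the values gave 1 call in lsPERK and 9 in WT liver. Cyld, a deubiquitinase that limits NF-κB, rose by 1.21 in WT liver, and under tunicamycin lsPERK livers held less of it than WT livers (log2 −1.35). In lsPERK liver the rises were Dusp1 (1.09), a phosphatase of MAP kinases, and Zfp36 (0.75), which destabilises cytokine mRNAs. Of 16 other NF-κB target genes tested, 1 rose and 2 fell in lsPERK liver, where 8.42% of all genes rose and 7.27% fell. In WT liver 3 rose and 5 fell, where 20.7% of all genes rose and 26.0% fell. Birc3, an inhibitor of apoptosis, fell by 1.19 in lsPERK and by 2.05 in WT liver. Tnfaip2 fell by 1.53 in WT liver and was 1.71 higher in lsPERK than in WT liver under tunicamycin, and it was among the 3 genes nearest to Socs3 over the arrays (root mean square difference 0.52).

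Of 31 other chemokines listed, 14 passed the filter. In limma 0 were called in lsPERK liver, where 7.27% of all genes fell and 8.42% rose, and 1, Pf4, was called lower in WT liver (−0.55), where 26.0% of all genes fell. The Pf4 call was lost with the values as deposited and with median centring. Cxcl2, Cxcl5, Ccl3 and Ccl7, which share receptors with Cxcl1 or Ccl2 and Ccl9, were below the filter. Of 22 chemokine receptors 9 were tested, and Ackr4 was called lower in the WT response (−0.93). Its WT tunicamycin values, 20.4 to 39.7, all lay under the filter threshold, so the size of that fall is uncertain. Of 8 cytokines tested, Il18 fell in both genotypes, by 0.85 in lsPERK and by 0.97 in WT liver, and Tnfsf10 (−1.17) and Tgfb1 (−0.67) fell in WT liver, while Tnf and Il6 were below the filter. No call in WT liver was left among the 8 with the values as deposited. Among 19 cytokine and pattern receptors tested, 2 rose in lsPERK liver, where 8.42% of all genes rose. In WT liver 3 rose and 5 fell, where 20.7% of all genes rose and 26.0% fell. Irak2, a kinase adaptor of the interleukin-1 pathway, rose by 1.22 in lsPERK and by 0.92 in WT liver. Ifngr2, a chain of the interferon-γ receptor, fell by 1.85 in WT liver and was 1.49 higher in lsPERK than in WT liver under tunicamycin, and the difference of its responses was 1.97 (adjusted p 0.000251).

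Cxcl9 and Cxcl10 were set beside a list of other interferon-induced genes. Of 21 tested, 6 fell in lsPERK liver and 13 in WT liver, and 0 rose in either, where 7.27% of all genes fell in lsPERK and 26.0% in WT liver. Their median was −0.80 in lsPERK and −1.22 in WT liver. The uncalled differences of Cxcl9, −1.11 in lsPERK and −0.90 in WT liver, lay near these medians. Those of Cxcl10, 0.02 in lsPERK and 0.05 in WT liver, did not. Both differences of Cxcl9 shrank without lsPERK control replicate 1 and WT control replicate 1, as given above. Irf7 fell by 1.32 in lsPERK and by 1.94 in WT liver, and Ifit1 fell by 2.03 in lsPERK and by 2.12 in WT liver. Ifit1 was 108 to 238 in control livers, but 28.8 to 40.2 in WT tunicamycin livers, all under the filter threshold. In lsPERK tunicamycin livers it was 30.4, 43.3, 36.6 and 32.3, and only the value of 43.3 exceeded the threshold. The sizes of both Ifit1 falls are therefore uncertain. Iigp1 fell by 1.68 in WT liver and was 1.73 higher in lsPERK than in WT liver under tunicamycin. Without lsPERK control replicate 1 and WT control replicate 1, 6 of the list were called in lsPERK and 10 in WT liver. With the values as deposited, 5 were called in lsPERK and 7 in WT liver, and on Xist-low arrays alone 1 and 11.

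**Figure D5:**
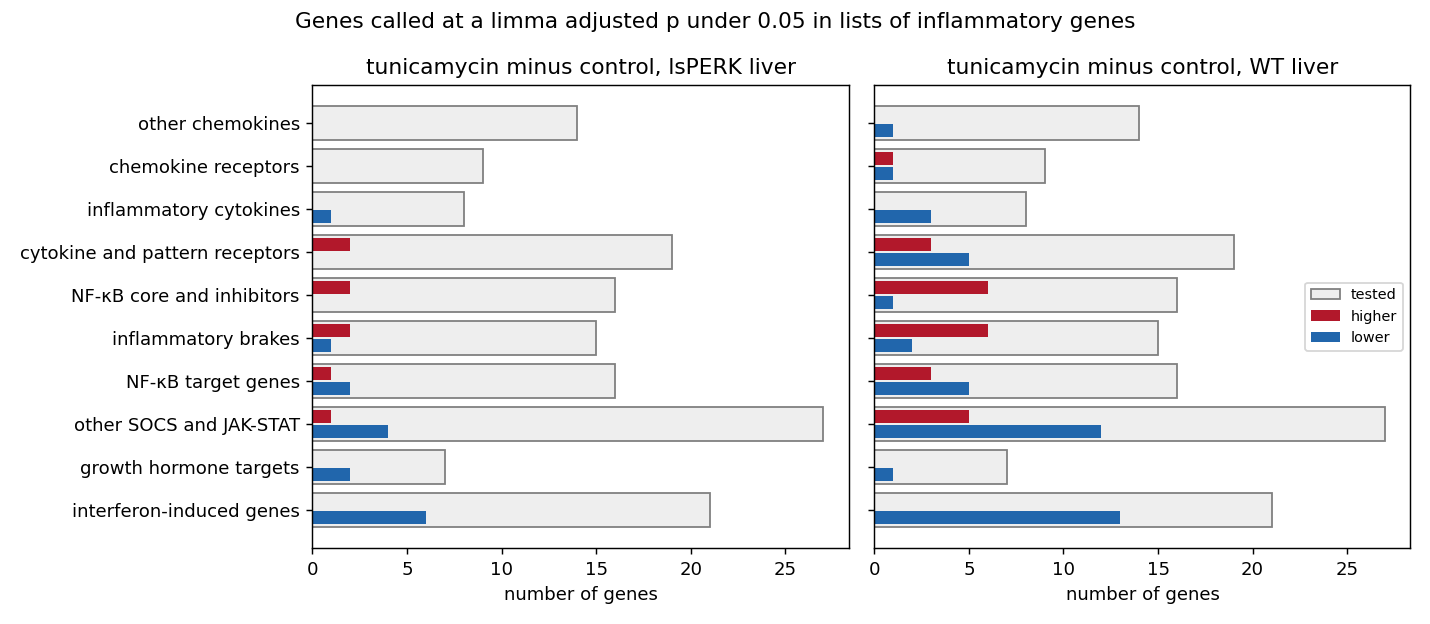
Number of genes called at a limma adjusted p under 0.05 in 10 lists of inflammatory genes, for tunicamycin minus control in lsPERK liver (left) and WT liver (right). Grey bars show the genes tested, red those higher and blue those lower with tunicamycin. Among interferon-induced genes 6 of 21 are lower in lsPERK and 13 of 21 in WT liver, and none is higher.

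By the same root mean square measure, Cxcl1, whose own SD over the 14 arrays was 1.13, lay nearest to Nrg4 (0.28), which encodes neuregulin 4, then to Slc35g1 (0.39) and Slc17a3 (0.43). Nrg4 rose by 0.92 in lsPERK liver (adjusted p 0.0430) and fell by 1.65 in WT liver (adjusted p 0.000316), the pattern of opposite directions that Cxcl1 had. Slc35g1, with responses of 1.28 in lsPERK and −1.40 in WT liver, and Slc17a3, with 0.88 in lsPERK and −1.03 in WT liver, were also called in both. Cxcl12 (SD 0.63) lay nearest to Coa6 (0.11), Gstk1 (0.13) and Isoc1 (0.14), Ccl9 (SD 0.65) to Tra2a (0.18), Frmd4b and Ralb (0.21 each), and Nfkbia (SD 0.33) to Ifnar2 (0.095), Slc17a2 (0.10) and Ndufs7 (0.11). Ifnar2 fell by 0.69 in WT liver and was 0.47 higher in lsPERK than in WT liver under tunicamycin. Cxcl10 (SD 0.86) lay nearest to Dram1 (0.48), Dse (0.49) and Cxcr6 (0.50), and Tnfaip3 (SD 0.49) to Plxnc1 (0.22), Icam2 (0.23) and Trib2 (0.24). Socs3 (SD 1.09) lay nearest to Abca3 (0.50), Tnfaip2 (0.52) and Wee1 (0.52), and Socs2 to Irgm2 (0.65), Limd2 (0.84) and Bmf (0.85). The measure says only that the values ran alike.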

How the data were processed

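Liver RNA of 14 samples in 4 groups was measured on 1-colour Affymetrix arrays, from 100 ng of total RNA by 3′ in vitro transcription, per the labels' protocols. The authors deposited linear intensities for 45101 probe sets, made with GCOS and MAS5 per the submitters' processing notes, and the settings of both programs are not stated in the sources used here. The 64 control probe sets were left out, and log2 intensities were quantile-normalized. A probe set was kept if at least 3 arrays exceeded the pooled median (intensity 41.5), which left 25316. Of all probe sets, 34945 named 1 gene, 932 several and 9160 none, in the older platform annotation given with the data, and only the first kind was used. The brightest kept probe set stood for each of 12085 genes. Group means were fitted with limma 3.58.1 (R 4.3.3; eBayes with trend, 10 residual degrees of freedom), and p-values were adjusted by Benjamini-Hochberg over all genes in each of 5 comparisons. The limma fit was tested on simulated data for the WT response only, without the normalization, the filter or the choice of probe sets. Distances were computed in R, and motifs and figures were made with Python 3.11.15 and matplotlib 3.10.9.

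The 10 genes and all gene lists were chosen with earlier results of these data known. Besides the 10 genes, the text names up to 4 called genes per list and comparison in order of p, the cell type markers and the 3 genes nearest to each of the 9. Alternatives were the values as deposited, median centring, a floor or an added constant for low values, no filter or a stricter one, no variance trend, the mean of a gene's probe sets, the β-actin ratio or Xist status as a covariate, leaving out each array in turn, and a block for the replicate number. Xist-low arrays alone, Xist-high arrays alone, and leaving out lsPERK control replicate 1 with WT control replicate 1 were chosen after seeing the data. Precision is limited by the number of arrays. Protein sequences were not used here.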

Additional observations from a re-analysis of the deposited data

Results flagged for a closer look

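For Ccl2, lsPERK tunicamycin replicate 4 had a normalized intensity of 2.07, against 25.1 to 39.3 on the other 3 arrays of its group. The gap on the log2 scale exceeded Dixon's 95% critical value for a group of 4. It was the only such gap among 20 groups of 4 tested over the 10 genes, and chance gives about 1 in 20. All values of Ccl2 in that group lay under the filter threshold.

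The response to tunicamycin differed between lsPERK and WT liver in limma's test of the difference itself for 4 genes. The difference, lsPERK response minus WT response, was 2.95 for Cxcl1, 0.90 for Cxcl12, −1.47 for Ccl9 and 0.62 for Nfkbia on the log2 scale. Cxcl1 and Ccl9 were called under every alternative tried, whereas Cxcl12 and Nfkbia were not called with the values as deposited.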

How the results depend on the processing

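Cxcl1 and Ccl9 kept their calls in WT liver, between genotypes under tunicamycin and in the difference of responses under all alternatives. Without any 1 array, 2 to 4 of the 9 genes were called in lsPERK liver, 5 to 6 in WT liver, 5 to 6 between genotypes under tunicamycin and 4 to 5 for the difference. With the replicate number as a block, 4 genes were called in lsPERK liver, 5 in WT liver (Socs2 lost, −2.08, adjusted p 0.0537), 6 under tunicamycin, 0 in controls and 5 for the difference (Tnfaip3 gained, 0.93, adjusted p 0.0477). Deviations from the group means correlated over 0.1 in 13 of 19 same-number pairs (−0.366 to 0.419, median 0.242) and in 23 of 54 other pairs (median −0.171). Since 6 same-number pairs did not reach 0.1 and the labels name no shared animal, litter or day, the numbers were not taken as pairs. Every pair over 0.1, same-number or not, joined arrays of the same Xist status, and every pair of unlike status had a negative correlation. The main fit left Xist status out, and the fit with it as a covariate is among the alternatives. The cause of this pattern was not tested.

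With the values as deposited, 2 genes were called for the difference of responses, while 14 list genes were called in lsPERK liver (against 23 after quantile normalization) and 26 between genotypes under tunicamycin (against 42). Median differences of all genes moved by over 0.1 with this scaling, to 0.30 in WT liver, −0.11 between genotypes under tunicamycin, 0.30 between control livers and −0.42 for the difference of responses. On Xist-low arrays alone 1 of the 9 genes and 7 list genes were called in lsPERK liver. On Xist-high arrays alone 3 of the 9 were called under tunicamycin, and list genes called were 14 in lsPERK liver, 39 in WT liver (against 68), 20 under tunicamycin and 5 for the difference (against 21). Calls lost on Xist-low arrays alone were those of Cxcl12 (−0.52, adjusted p 0.113), Socs2 (adjusted p 0.257) and Socs3 (−1.56, adjusted p 0.0664) in lsPERK liver, Socs2 in WT liver (−1.43, adjusted p 0.124), Tnfaip3 between genotypes under tunicamycin (0.79, adjusted p 0.0611) and Nfkbia for the difference of responses (0.47, adjusted p 0.215). On Xist-high arrays alone Socs3 lost its calls in lsPERK liver (−1.20), in WT liver (−1.25) and between genotypes under tunicamycin (1.13). Lost as well were the calls of Nfkbia (0.51) and Tnfaip3 (0.59) between genotypes under tunicamycin, and of Nfkbia for the difference of responses (0.75). WT tunicamycin and WT control livers gave only 1 Xist-high array each. These subsets hold fewer arrays.

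None of the values that turned their sign was called. With the values as deposited they were Cxcl10 in lsPERK liver (−0.084), lsPERK minus WT in controls for Cxcl1 (0.044), Cxcl9 (0.28), Cxcl10 (0.31), Nfkbia (0.12) and Tnfaip3 (0.28), and the difference of responses for Socs3 (−0.26). Median centring turned Nfkbia in lsPERK liver (0.030), and an added 25th percentile turned Cxcl10 there (−0.00567). With the β-actin covariate Cxcl10 was −0.36 in lsPERK liver, −0.47 in WT liver and 0.11 for the difference, which was 0.085 with the Xist covariate. On Xist-low arrays alone Cxcl9 was 0.24 in lsPERK liver, Cxcl10 −0.18 in WT liver and Nfkbia 0.051 between control livers, with differences of 0.87 for Cxcl9, 0.75 for Cxcl10 and −0.00956 for Socs3. On Xist-high arrays alone Cxcl10 was −0.015 in lsPERK liver and Socs2 −0.90 between control livers. Without lsPERK control replicate 1 and WT control replicate 1, Nfkbia was 0.032 between control livers, and the differences were 0.073 for Cxcl9, 0.35 for Cxcl10 and −0.068 for Socs3. The cause was not tested in any of these.

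Leaving out 1 array at a time, Cxcl10 ran from −0.50 to 0.74 in lsPERK liver and from −0.51 to 0.43 in WT liver. Between genotypes under tunicamycin Cxcl9 ran from −0.63 to 0.21 and Cxcl10 from −0.48 to 0.46. Between control livers Cxcl9 ran from −1.16 to 0.79, Cxcl10 from −0.79 to 0.44, Tnfaip3 from −0.41 to 0.19 and Socs2 from −0.70 to 1.18. The difference of responses ran from −1.10 to 0.86 for Cxcl9, −0.55 to 0.68 for Cxcl10, −1.67 to 0.21 for Socs2 and −0.069 to 0.42 for Socs3. Ccl2, Cxcr4 and most neutrophil markers lay near or under the filter threshold, so changes in them were not detectable or only weakly so.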
